A study of Oryctolagus cuniculus with 9 samples.

Results

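Genes of glycolysis and of the transcriptional response to low oxygen were followed through poly(A) RNA of rabbit (Oryctolagus cuniculus) urethral tissue. Members were taken by gene symbol from the deposited count table: 31 of 32 listed symbols were found among 28788 gene rows, and SLC2A3 was not found by symbol. All 31 passed the filter on low counts. They comprised 1 glucose transporter (SLC2A1), 17 enzymes from hexokinase to lactate dehydrogenase, 3 regulators of flux (PFKFB3, PFKFB4, PDK1), 2 lactate transporters (SLC16A1, SLC16A3), 7 hypoxia targets outside the pathway (CA9, ADM, BNIP3, NDRG1, EGLN3, ANKRD37, ANGPTL4) and HIF1A, the oxygen-regulated subunit of the hypoxia-inducible transcription factor.

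Glycolysis splits glucose into pyruvate in the cytosol and yields ATP without oxygen. Hexokinase, phosphofructokinase and pyruvate kinase catalyse its essentially irreversible steps, and lactate dehydrogenase reduces pyruvate to lactate, which leaves the cell through monocarboxylate transporters. At low oxygen HIF1A protein escapes degradation and raises transcription of SLC2A1, of many glycolytic enzymes and of targets with no part in the pathway, so the enzymes and the other targets can be read side by side. HIF1A is regulated mainly at the level of its protein, which RNA does not show. Activated neutrophils and macrophages also rely heavily on glycolysis.

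The series concerns a hydrogel stent in 3 layers for repair of the urethra. The 9 libraries carry the codes S9 (replicates 1, 2 and 4), S7 (replicates 2, 3 and 4) and S6 (replicates 2, 3 and 4), with 3 libraries in each group. The labels used here do not say which treatment, time, strain or age a code stands for, which code is a control, or whether each library is its own animal. The p-values therefore measure only the spread between these libraries. No difference below is attributed to a treatment.

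Library totals lay between 35127085 and 36832773 counts, and 17102 genes were tested. Epithelial markers (10 of 10 in the table), smooth muscle markers (7 of 7), fibroblast and endothelial markers were all detected, whereas the skeletal muscle markers in the table (3 of 8, with MYH1 at 0 in all libraries) summed to at most 5.34 CPM (counts scaled to the library size) in any library. Genes encoded by mitochondrial DNA took 0.243% to 1.52% of counts, with the lowest share of each group in S9 replicate 4, S7 replicate 3 and S6 replicate 4. Neutrophil markers (8 of 10 in the table) summed to 2070, 6438 and 833 CPM in S9, 5676, 8099 and 6099 CPM in S7, and 13155, 15772 and 8845 CPM in S6. Smooth muscle markers summed to 8835, 11548 and 5904 CPM in S9, 9639, 2746 and 4684 CPM in S7, and 3094, 1833 and 1750 CPM in S6. In bulk tissue, fewer cells of a type and less RNA per cell cannot be told apart.

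In S9 against S6, log2 fold changes were negative for 14 of the 17 glycolytic enzymes and 5 of the 7 hypoxia targets. Over all 17102 genes tested, 8675 were negative. By edgeR's quasi-likelihood test with Benjamini-Hochberg adjustment, 11 of the 31 genes fell (HK2, GPI, PFKL, ALDOA, TPI1, GAPDH, PGK1, PGAM1, PKM, SLC16A3 and BNIP3) against a background of 6.34% of all genes tested. A single gene, PFKM, rose, against a background of 6.02%. Of the 17 enzymes 9 fell and 1 rose, and of the 7 hypoxia targets 1 fell and 0 rose. The median log2 fold change was -0.74 over the enzymes, -0.25 over the hypoxia targets and -0.011 over all genes tested. In 13 members all S9 libraries lay below all S6 libraries, against 17.0% of all genes, and in 2 (PFKM and ENO2) all lay above, against 18.6%.

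These calls depended on single libraries. The number of members called lower was 0 without S9 replicate 1, 0 without S9 replicate 2, 1 (HK2, adjusted p = 0.0419) without S6 replicate 4, 6 without S6 replicate 2, and 7 without S6 replicate 3 or without S7 replicate 4. PFKM was not called without S9 replicate 1, S9 replicate 2 or S6 replicate 4. Every one of the 12 called genes kept its direction in all 17 alternatives run. In each of these genes the S9 and S6 libraries did not overlap, so leaving libraries out could not by itself reverse the direction. With 1 library left out the median over the members ranged from -0.82 (without S6 replicate 4) to -0.63 (without S9 replicate 1).

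S7 stood between the other groups for most enzymes. In S7 against S6 no member passed the threshold, against a background of 0.0468% of all genes called higher and 0.0643% called lower, and in S9 against S7 none did, against 0.0% in each direction. At an unadjusted p below 0.05, 1 member was higher and 9 were lower in S7 against S6, where 1485 of all 17102 genes were higher and 1443 lower. By the same rule 0 members were higher and 5 lower in S9 against S7, where 710 of all genes were higher and 865 lower. DESeq2 called 1 member higher (PFKM) and 5 lower (HK2, ALDOA, SLC16A3, BNIP3, EGLN3) in S7 against S6, among 1417 of all genes. The median log2 fold change of the enzymes was -0.35 in S7 against S6 and -0.38 in S9 against S7, and that of the hypoxia targets was -0.50 in S7 against S6 and 0.054 in S9 against S7. Group means ran S9 lowest, S7 between and S6 highest for 12 of 17 enzymes (70.6%), 2 of 7 hypoxia targets and 28.2% of all genes. In the test for any difference among the 3 groups, HK2 (adjusted p = 0.0207) and SLC16A3 (adjusted p = 0.0320) were called, against a background of 2.43% of genes. That number was 0 without S9 replicate 1, S9 replicate 2 or S6 replicate 4, 1 without S6 replicate 3 or S7 replicate 4, and 4 without S9 replicate 4.

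All S7 libraries lay below all S6 libraries for 10 members, against 10.4% of all genes, and above them for 1 (PFKM), against 10.7%. Between S9 and S7 the S9 libraries lay below for 5 members, GPI, TPI1, PGK1, PGAM1 and PKM, against 8.81% of all genes, and above for 0, against 8.36%.

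**Figure D1:**
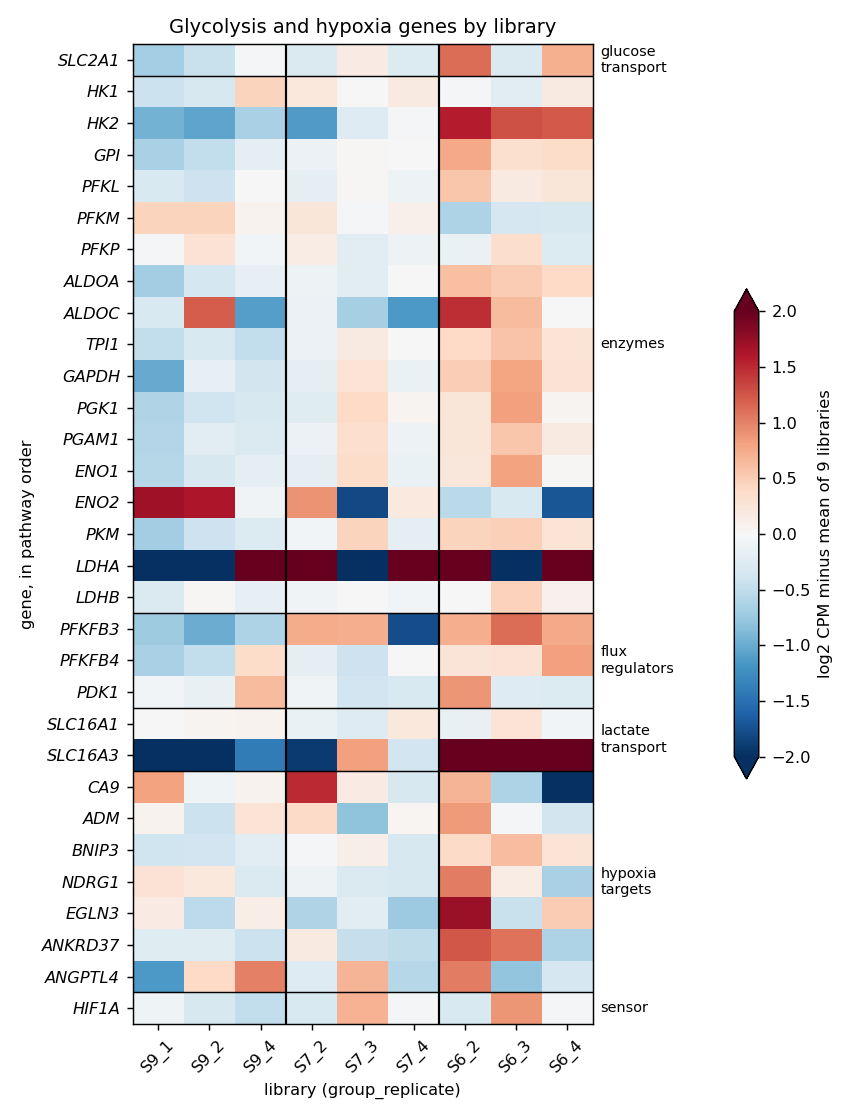
Level of each of the 31 genes in each of the 9 libraries, as log2 CPM minus the mean of that gene over the 9 libraries; genes run down in pathway order and libraries run S9, S7, S6 from left to right, and the colour scale ends at 2 in either direction. Most enzyme rows are low in S9 and high in S6, PFKM and ENO2 run the other way, and LDHA differs most between libraries of the same group.

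Glucose enters through SLC2A1 (GLUT1), the widely expressed facilitative transporter and itself a hypoxia target. It had 29.0, 34.3 and 46.1 CPM in S9, 38.2, 52.3 and 38.5 CPM in S7, and 101, 38.3 and 76.1 CPM in S6. S6 replicate 3 lay within the range of the other groups, so the groups overlapped. Its log2 fold change in S9 against S6 was -0.98 ± 0.33 (SE, adjusted p = 0.0839), and -1.27 with an adjusted p of 0.0306 without S6 replicate 3. That library was the lowest of S6, so leaving it out was bound to enlarge the difference. SLC2A1 therefore counts as not called.

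Hexokinase phosphorylates glucose on entry. HK2, the inducible isoenzyme, had 9.79, 9.15 and 12.1 CPM in S9, 8.68, 16.0 and 18.6 CPM in S7, and 56.3, 46.0 and 44.4 CPM in S6. Every S6 library was above every other library, and S9 and S7 overlapped. HK2 fell in S9 against S6 (log2 fold change -2.24, SE 0.28, adjusted p = 0.0127, up to 0.0797 over the alternatives), with group means of 10.4 ± 1.57 CPM in S9 and 48.9 ± 6.46 CPM in S6 (SD, n = 3 each). In S7 against S6 its log2 fold change was -1.76 ± 0.28, with an adjusted p of 0.0700 in edgeR and 1.5e-06 in DESeq2. HK1, the constitutive isoenzyme, averaged 214 ± 76.5 CPM in S9, 242 ± 19.6 CPM in S7 and 219 ± 29.5 CPM in S6, and its log2 fold change in S9 against S6 was -0.03 (adjusted p = 0.948).

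Per transcript length, in FPKM (fragments scaled to transcript length and library size), HK1 was the main hexokinase of the pair in every group. HK2 made up 3.36% ± 0.638 of their summed FPKM in S9, 3.96% ± 1.45 in S7 and 13.4% ± 2.24 in S6 (SD, n = 3 each).

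GPI, which turns glucose 6-phosphate into fructose 6-phosphate, had 233, 259 and 318 CPM in S9, 337, 373 and 362 CPM in S7, and 621, 454 and 474 CPM in S6. The 3 groups did not overlap. GPI fell in S9 against S6 (log2 fold change -0.94, SE 0.18, adjusted p = 0.0227).

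Phosphofructokinase commits sugar to the pathway, and is built from 3 kinds of subunit. PFKM, the muscle-type subunit, had 57.5, 57.5 and 44.3 CPM in S9, 49.8, 40.9 and 45.2 CPM in S7, and 27.3, 33.3 and 33.7 CPM in S6. Every S9 and S7 library was above every S6 library. PFKM rose in S9 against S6 with a log2 fold change of 0.76 ± 0.16 (SE, adjusted p = 0.0253), and its value in S7 against S6 was 0.53 (adjusted p = 0.150). PFKL, the liver-type subunit, had 118, 110.2 and 145 CPM in S9, 129, 148 and 136 CPM in S7, and 215, 166 and 173 CPM in S6, and fell in S9 against S6 (log2 fold change -0.57, SE 0.16, adjusted p = 0.0466). That call was lost in 13 of 17 alternatives. PFKP, the platelet-type subunit, had a log2 fold change of 0.06 (adjusted p = 0.864).

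As a share of the summed FPKM of the 3 subunits, PFKM made up 17.0% ± 3.03 in S9, 14.2% ± 1.40 in S7 and 8.45% ± 1.56 in S6. PFKL made up 57.2% ± 6.31 in S9, 62.5% ± 4.25 in S7 and 71.0% ± 5.86 in S6 (SD, n = 3 each), and was the main subunit in every group. Of the 7 smooth muscle markers 6 rose in S9 against S6 (TAGLN was not called), against 6.02% of all genes tested. Their sums did not overlap between these groups. None of these marker calls held without S9 replicate 1, where 0 of all genes tested were called in S9 against S6. The library with the lowest sum had the lowest PFKM in S9 (replicate 4) and in S7 (replicate 3), while in S6 PFKM was lowest in replicate 2, which had the highest sum. Their part in the PFKM result was not tested.

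ALDOA, the aldolase of most tissues, which splits the doubly phosphorylated sugar, had 533, 675 and 763 CPM in S9, 800.1, 736 and 866 CPM in S7, and 1305, 1217 and 1137 CPM in S6. S9 and S7 overlapped and S6 was above both. ALDOA fell in S9 against S6 (log2 fold change -0.89, SE 0.18, adjusted p = 0.0240). ALDOC, the brain-type aldolase, had 5.66, 16.4 and 3.26 CPM in S9, 6.47, 4.44 and 3.16 CPM in S7, and 19.7, 11.0 and 7.02 CPM in S6. S7 lay below S6 and S9 spanned both. Its log2 fold changes of -0.58 in S9 against S6 (adjusted p = 0.559) and -1.42 ± 0.62 in S7 against S6 (adjusted p = 0.285) were not called.

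TPI1, which interconverts the triose phosphates, had 308, 351 and 307 CPM in S9, 397, 489.6 and 432 CPM in S7, and 573, 640.4 and 524 CPM in S6. The groups stood in 3 separate ranges. TPI1 fell in S9 against S6 (log2 fold change -0.85, SE 0.15, adjusted p = 0.0199). GAPDH, which oxidises glyceraldehyde 3-phosphate and is often taken as a reference gene, had 506, 914 and 792 CPM in S9, 902, 1229 and 927 CPM in S7, and 1440.5, 1754 and 1247 CPM in S6. It fell in S9 against S6 (log2 fold change -1.01, SE 0.26, adjusted p = 0.0398), a 2.01-fold lower level, and S9 and S7 overlapped. The GAPDH call was lost in 11 of 17 alternatives, among them the correction for gene length (adjusted p = 0.0685).

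PGK1, the first ATP-yielding step, had 116, 133 and 140.3 CPM in S9, 148, 232 and 183 CPM in S7, and 208, 312 and 182 CPM in S6. PGAM1, which moves the phosphate group on the sugar acid, had 216, 275 and 264 CPM in S9, 299, 411 and 303 CPM in S7, and 384, 475 and 365 CPM in S6. For both genes S9 lay below the other 2 groups, while S7 and S6 overlapped. PGK1 fell in S9 against S6 (log2 fold change -0.85, SE 0.24, adjusted p = 0.0491) and PGAM1 likewise (log2 fold change -0.70, SE 0.19, adjusted p = 0.0450), and these calls were lost in 12 and 13 of 17 alternatives.

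Enolase makes phosphoenolpyruvate. ENO1, the form of most tissues, had 362, 428 and 469.7 CPM in S9, 466, 689 and 489.8 CPM in S7, and 625, 931 and 542 CPM in S6. S9 lay below S6 in all libraries, but the log2 fold change of -0.74 ± 0.25 was not called (adjusted p = 0.0810). ENO2, the neuron-type form, had 16.8, 15.8 and 4.90 CPM in S9, 9.60, 1.43 and 5.88 CPM in S7, and 3.52, 4.12 and 1.53 CPM in S6.

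All S9 libraries were above all S6 libraries for ENO2, with a log2 fold change of 2.03 ± 0.72 that edgeR did not call (adjusted p = 0.0943) and DESeq2 did (adjusted p = 0.0180). In S9 against S7 the value was 1.15 ± 0.70 (adjusted p = 0.612). ENO2 made up 2.67% ± 1.57 of the summed FPKM of ENO1 and ENO2 in S9, 1.01% ± 0.804 in S7 and 0.378% ± 0.124 in S6. Neuron and Schwann cell markers summed to 189, 287 and 219 CPM in S9, 208, 38.7 and 189 CPM in S7, and 148, 29.4 and 52.2 CPM in S6. Of these 5 markers 1, SOX10, rose in S9 against S6, against 6.02% of all genes tested, and its call did not hold without S9 replicate 1. S7 replicate 3 was the lowest S7 library in both, whereas S9 replicate 4, lowest in S9 for ENO2, was not lowest for the markers. Within S6, replicate 3 had the highest ENO2 and the lowest marker sum. The part of these markers in the ENO2 values was not tested.

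PKM, the pyruvate kinase of most tissues outside liver and red cells, closed the main line with 379, 459.7 and 507 CPM in S9, 589, 832 and 539 CPM in S7, and 834, 851 and 739.8 CPM in S6. S9 was below both other groups. PKM fell in S9 against S6 (log2 fold change -0.85, SE 0.21, adjusted p = 0.0344).

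**Figure D2:**
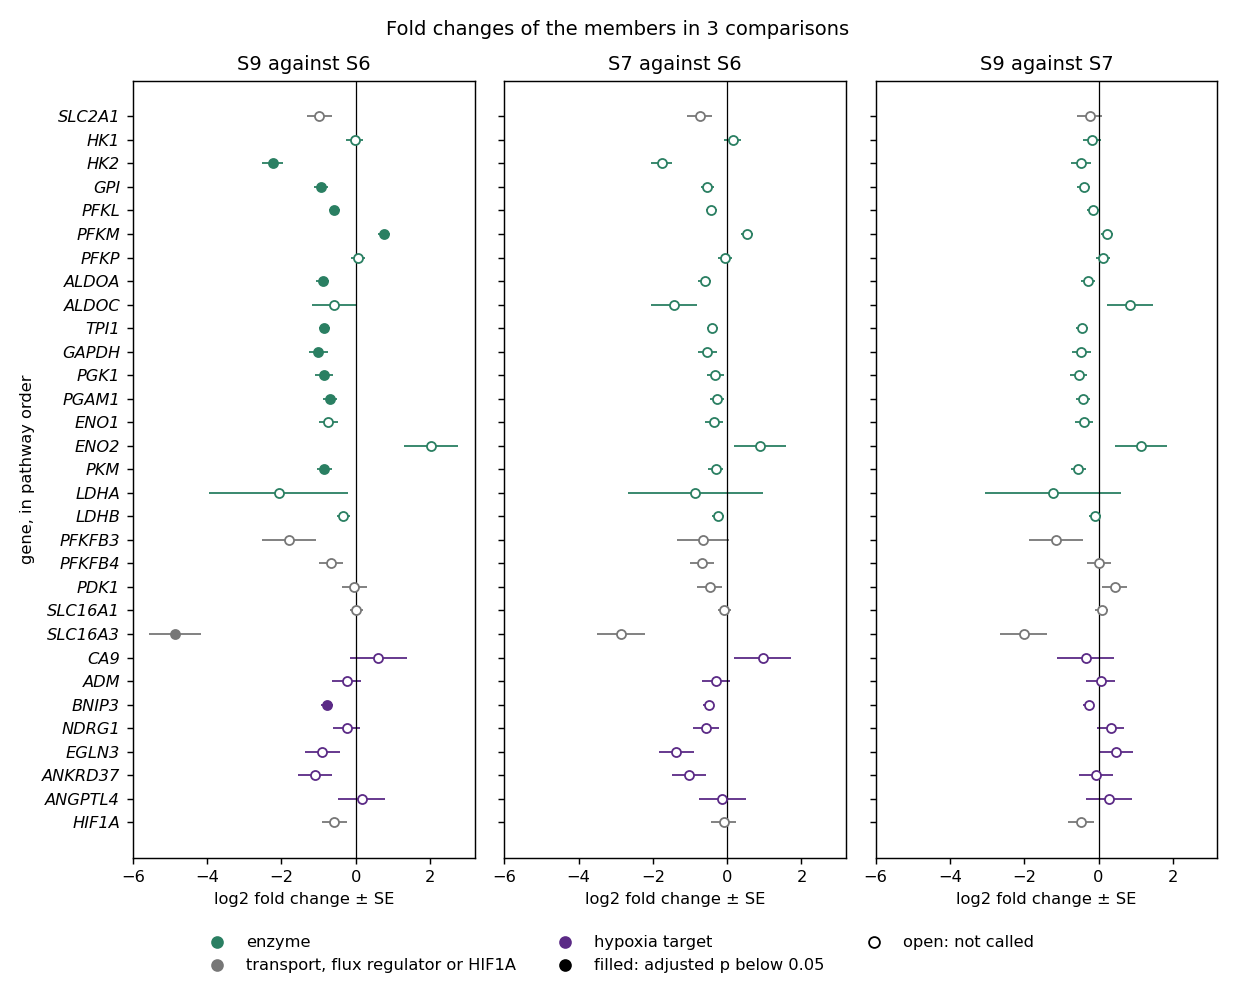
Log2 fold change of each gene, with its standard error as a bar, in S9 against S6, S7 against S6 and S9 against S7; filled points have an adjusted p below 0.05 in edgeR. Filled points appear in S9 against S6 alone, 11 left of 0 and 1 (PFKM) right of it, and SLC16A3 and HK2 lie furthest left among them.

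Per transcript length the enzymes spanned a wide range of levels. Over the 9 libraries GAPDH averaged 853 FPKM, ALDOA 466, TPI1 339.7, ENO1 274, PKM 238, GPI 189 and PGAM1 182, whereas PFKL averaged 57.1, PFKM 11.5 and HK2 4.15 FPKM. GAPDH, PGK1, TPI1, ENO1, PGAM1, PKM and LDHA have processed pseudogenes or near-identical copies in mammalian genomes. How the authors' counting treated reads that match several copies, or reads on the opposite strand, is not given in the sources used here, so these levels are less certain than the others.

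At the end of the pathway LDHA, the muscle-type lactate dehydrogenase subunit and a classical hypoxia target, differed most between libraries of the same group. It had 0.794, 0.876 and 65.9 CPM in S9, 70.7, 2.07 and 84.2 CPM in S7, and 147, 2.45 and 136 CPM in S6. The 4 low libraries, S9 replicates 1 and 2, S7 replicate 3 and S6 replicate 3, held at most 81 counts each, and the other 5 held at least 2489. The log2 fold change in S9 against S6 of -2.08 ± 1.87 was not called (adjusted p = 0.491), nor was that of -1.22 ± 1.83 in S9 against S7 (adjusted p = 0.835). With a 5-fold gap and at least 20 counts asked for, 1 other gene row, LOC127482741, parted the same libraries in the same direction and 0 genes did so in the opposite direction. The low LDHA libraries were not those with the lowest mitochondrial shares apart from S7 replicate 3.

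LDHB, the heart-type subunit, had 286, 357 and 313 CPM in S9, 334, 352 and 336 CPM in S7, and 350.2, 479.6 and 373 CPM in S6, with a log2 fold change in S9 against S6 of -0.33 (adjusted p = 0.206). In the 5 libraries with at least 2489 LDHA counts, LDHB made up 87.0% of the summed LDHA and LDHB FPKM in S9 replicate 4, 86.9% and 84.9% in S7 replicates 2 and 4, and 77.1% and 79.4% in S6 replicates 2 and 4. In the other 4 libraries its share was 99.6% to 99.8%. Without LDHA the median log2 fold change of the members was -0.68 in S9 against S6, against -0.70 with it.

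Lactate leaves through monocarboxylate transporters, and here the difference was the largest among the called members. SLC16A3 (MCT4), the exporter of strongly glycolytic cells and a hypoxia target, had 1.24, 1.59 and 3.41 CPM in S9, 2.37, 16.0 and 6.95 CPM in S7, and 58.6, 51.3 and 73.3 CPM in S6. Every S6 library was far above every other library, and S9 and S7 overlapped. SLC16A3 fell in S9 against S6 (log2 fold change -4.87, SE 0.71, adjusted p = 0.0146), a 29.3-fold lower level, and its values across the alternatives ran between -5.41 and -4.51, with adjusted p up to 0.0805. In S7 against S6 the log2 fold change of -2.86 ± 0.64 had an adjusted p of 0.106 in edgeR and 0.000198 in DESeq2. In S9 against S7 it was -2.02 ± 0.63 (adjusted p = 0.538).

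SLC16A1 (MCT1), the broadly expressed carrier of the same family, had 21.6, 22.5 and 22.8 CPM in S9, 19.8, 18.1 and 25.1 CPM in S7, and 19.6, 26.1 and 20.7 CPM in S6. Its log2 fold change in S9 against S6 was 0.01 (adjusted p = 0.974). SLC16A3 made up 13.8% ± 6.28 of the summed FPKM of both transporters in S9, 37.2% ± 22.1 in S7 and 82.7% ± 4.43 in S6 (SD, n = 3 each).

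Many markers of white blood cells were, like HK2 and SLC16A3, lower in S9 than in S6. In S9 against S6 5 of 6 neutrophil markers tested fell, against 6.34% of all genes tested. Among them were the receptors CXCR2 (0.198 ± 0.137 CPM in S9, against 22.1 ± 14.8 CPM in S6) and CSF3R (0.351 ± 0.218 CPM in S9 and 9.60 ± 5.15 CPM in S6). The sixth, LTF, which glandular epithelium also makes, was not called, with means of 2543 CPM in S9, against 336 CPM in S6. It weighs heavily in the S9 sums given above. Of 5 macrophage markers tested 3 fell (CD68, CD163 and TYROBP), and the list summed to 148, 236 and 232 CPM in S9, 177, 204 and 291 CPM in S7, and 385, 1053 and 630 CPM in S6. All 3 T and NK cell markers tested (CD3E, CD247 and CD2, of 6 listed) fell as well, and summed to 8.05, 10.3 and 16.6 CPM in S9, 21.6, 11.7 and 15.6 CPM in S7, and 18.1, 80.8 and 53.6 CPM in S6. No marker of these 3 lists found in the table was at 0 in all libraries. The same 6.34% is the background for each list. None of their calls held without S9 replicate 1, where 0 of all genes tested were called in S9 against S6, and without S9 replicate 2 the number over all genes was 4. Within groups the order of the libraries varied. In S6, replicate 3 had the lowest SLC16A3 and the highest sum of all 3 lists. Replicate 2 of S6 had the highest HK2 of its group and the lowest macrophage and T and NK cell sums. In S7, replicate 3 had both the highest SLC16A3 and the highest neutrophil sum. The part of these marker lists in the HK2 and SLC16A3 results was not tested.

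**Figure D3:**
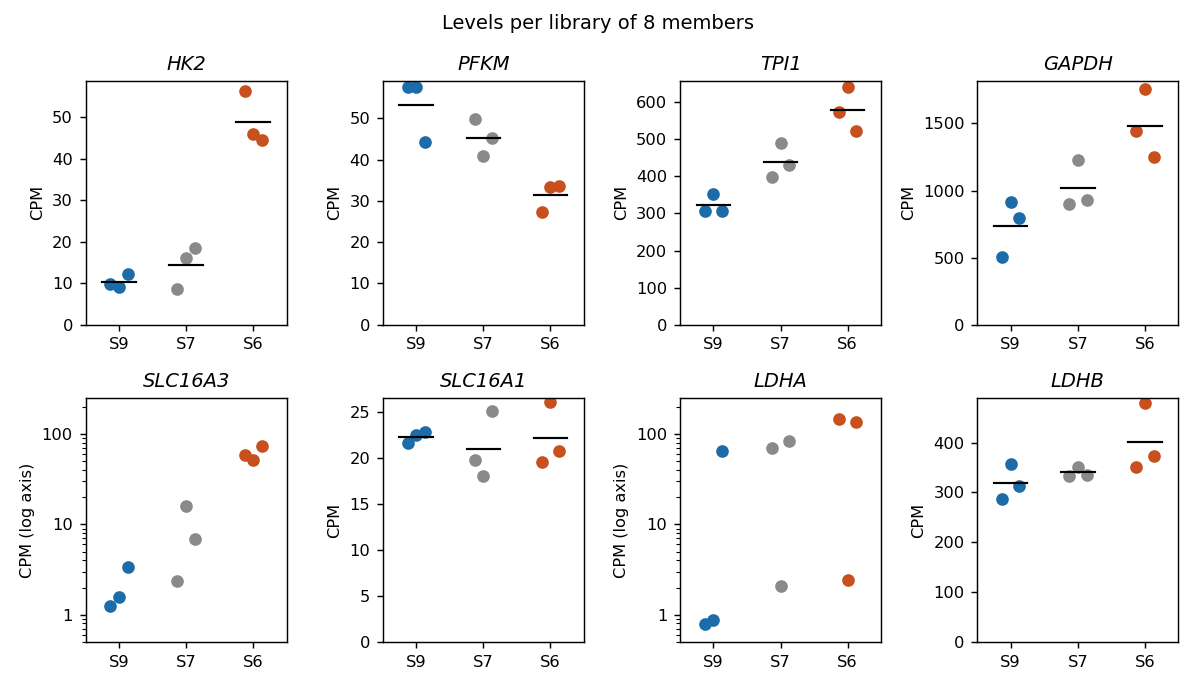
CPM in each library for 8 pathway members, with S9, S7 and S6 from left to right; HK2, PFKM, TPI1, GAPDH, SLC16A1 and LDHB are on linear axes from 0 with a black bar at the group mean, and SLC16A3 and LDHA are on log axes without a mean. HK2 and SLC16A3 are high in all 3 S6 libraries, PFKM is lowest there, SLC16A1 overlaps between the groups, and LDHA drops in 4 libraries spread over the groups.

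**Figure D4:**
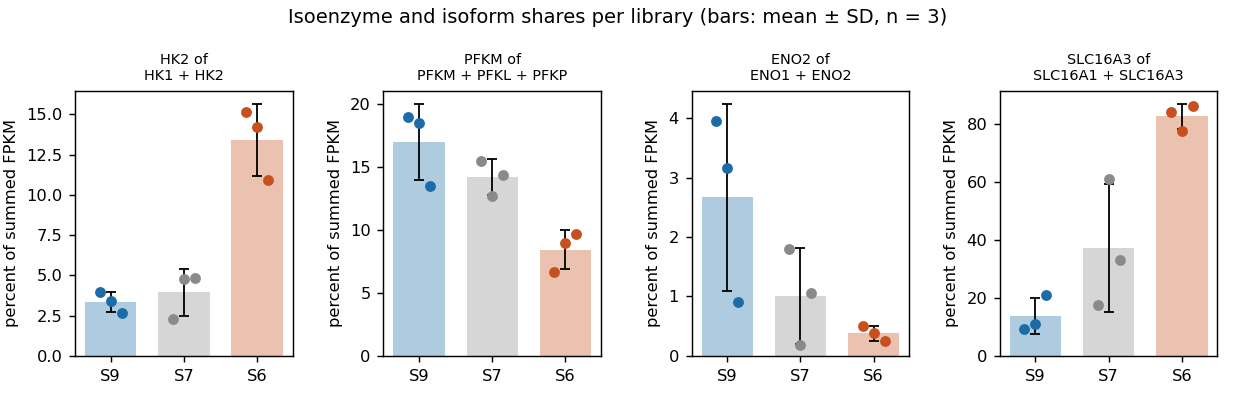
Share of HK2, PFKM, ENO2 and SLC16A3 in the summed FPKM of their isoenzymes or paired transporter, in percent, by library (points) with the group mean and SD (bars) for S9, S7 and S6. HK2 and SLC16A3 took their largest shares in S6, 13.4% and 82.7%, while PFKM and ENO2 took theirs in S9, 17.0% and 2.67%.

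None of the regulators of flux was called. PFKFB3, which makes the allosteric activator of phosphofructokinase, rested on few reads, with 13, 10 and 14 counts in S9, 38, 35 and 5 counts in S7, and 38, 45 and 39 counts in S6. Its log2 fold change was -1.79 ± 0.72 in S9 against S6 (adjusted p = 0.130) and -1.14 ± 0.72 in S9 against S7 (adjusted p = 0.614), although the S9 and S6 libraries did not overlap. PFKFB4, of the same family, had -0.67 (adjusted p = 0.192). PDK1, the pyruvate dehydrogenase kinase that holds pyruvate back from mitochondria at low oxygen, had 28.1, 26.4 and 45.2 CPM in S9, 27.9, 22.4 and 23.8 CPM in S7, and 54.1, 24.4 and 24.2 CPM in S6, with a log2 fold change in S9 against S6 of -0.04 (adjusted p = 0.952).

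Among the hypoxia targets outside glycolysis BNIP3 was the one that edgeR called in any comparison. BNIP3, a mitophagy receptor, had 108, 109.7 and 122 CPM in S9, 139, 156 and 115 CPM in S7, and 186, 219 and 174 CPM in S6. S6 was above both other groups, which overlapped. It fell in S9 against S6 (log2 fold change -0.77, SE 0.15, adjusted p = 0.0240), a size within that of the called enzymes.

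The other 6 targets had log2 fold changes in S9 against S6 between -1.09 and 0.61, and in each of them the groups overlapped. ANKRD37, an ankyrin repeat protein, had 4.60, 4.63 and 4.05 CPM in S9, 6.19, 3.94 and 3.84 CPM in S7, and 13.1, 11.7 and 3.54 CPM in S6, with a log2 fold change of -1.09 ± 0.46 in S9 against S6 (adjusted p = 0.140) and -1.02 ± 0.46 in S7 against S6 (adjusted p = 0.298). EGLN3, a prolyl hydroxylase that marks HIF proteins for degradation, had 70.8, 44.1 and 69.5 CPM in S9, 41.5, 53.8 and 38.2 CPM in S7, and 208, 46.1 and 89.4 CPM in S6. Its log2 fold change was -1.36 ± 0.47 in S7 against S6 (adjusted p = 0.193 in edgeR and 0.0477 in DESeq2) and -0.61 without S6 replicate 2, and -0.90 ± 0.47 in S9 against S6 (adjusted p = 0.226) and -0.14 without that library.

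S6 replicate 2 was the highest of the 9 libraries for 5 of the 7 hypoxia targets (ADM, NDRG1, EGLN3, ANKRD37 and ANGPTL4), against 11.6% of all genes tested. It was also the highest for 6 of 17 enzymes and for 13 of all 31 members. S6 replicate 3 was the highest for 8 of 17 enzymes and 12 of 31 members, against 21.6% of all genes tested. For ANGPTL4 the margin was small, 26.2 CPM against 25.9 CPM in S9 replicate 4. NDRG1, a stress-response protein, had 204, 193 and 136 CPM in S9 and 339, 186 and 106 CPM in S6, with a log2 fold change of -0.24 that was 0.28 without S6 replicate 2. ADM, which encodes the vasodilator adrenomedullin, had -0.25, and 0.19 without that library. ANGPTL4, an inhibitor of lipoprotein lipase, had 0.16, and 0.88 without it. None of these values was called. S6 replicate 2 was the highest S6 library for EGLN3, NDRG1, ADM and ANGPTL4, so leaving it out was bound to raise their fold changes. For NDRG1 (106 CPM) and ADM (18.2 CPM) the lowest S6 library was replicate 4, and values without it are not given here. CA9, a carbonic anhydrase at the cell surface and among the most hypoxia-specific targets, was at 0.295 to 4.34 CPM in all libraries, with a log2 fold change of 0.61 (adjusted p = 0.633).

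**Figure D5:**
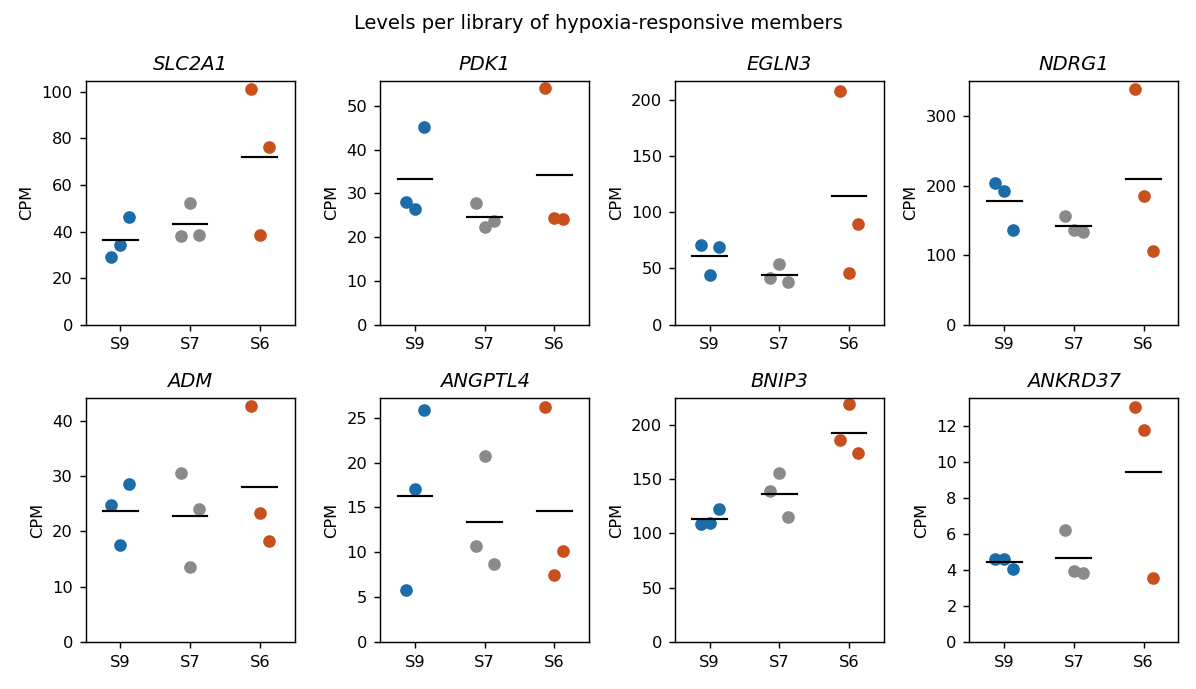
CPM in each library of 8 genes that answer to low oxygen, SLC2A1, PDK1, EGLN3, NDRG1, ADM, ANGPTL4, BNIP3 and ANKRD37, with S9, S7 and S6 from left to right and a black bar at the group mean. S6 replicate 2 is the top library in most panels and S6 overlaps the other groups in every panel but that of BNIP3, in which all S6 libraries are above all others.

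The enzymes and the hypoxia targets differed in level and, most of all in S6, in the spread between libraries. The median deviation of the enzymes from their own 9-library mean was -0.57, -0.32 and -0.19 (log2) in S9, -0.11, 0.0065 and -0.033 in S7, and 0.40, 0.47 and 0.17 in S6. For the 7 hypoxia targets it was 0.067, -0.24 and 0.067 in S9, -0.045, -0.23 and -0.32 in S7, and 1.02, -0.018 and -0.37 in S6. The 3 groups did not overlap for the enzymes, and S6 spanned both other groups for the targets. Pooled over the groups, the SD within groups was 0.147 for the enzymes and 0.437 for the targets. The targets spread most widely in S6, where replicate 2 stood at 1.02, whereas in S9 both lists spread about alike. The lists also differ in size, with 17 enzymes and 7 targets. These medians are descriptions of chosen lists, and the difference between the lists was not tested.

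HIF1A had 116, 98.8 and 87.8 CPM in S9, 100.5, 199.9 and 121 CPM in S7, and 100.4, 229 and 121 CPM in S6. The highest libraries were S7 replicate 3 and S6 replicate 3, and the groups overlapped. The log2 fold change in S9 against S6 was -0.57 (adjusted p = 0.295). In S6 the library with the highest HIF1A RNA (replicate 3) was not the one with the highest hypoxia targets (replicate 2).

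Other genes of glucose metabolism were taken from a wider list. Of 43 further listed genes 39 were tested, and in S9 against S6 0 rose and 9 fell, against 6.02% and 6.34% of all genes, with a median log2 fold change of -0.23. The 9 included the pentose phosphate enzymes TALDO1 (298 ± 58.0 CPM in S9 and 632 ± 58.4 CPM in S6, adjusted p = 0.0190), TKT (153 ± 52.0 CPM in S9 and 379 ± 37.4 CPM in S6, adjusted p = 0.0235) and PGD (99.7 ± 20.2 CPM in S9 and 207 ± 41.1 CPM in S6, adjusted p = 0.0259). PCK2, the mitochondrial phosphoenolpyruvate carboxykinase, averaged 17.5 ± 4.67 CPM in S9 and 46.0 ± 0.811 CPM in S6 (SD, n = 3 each, adjusted p = 0.0164). BSG, the chaperone that carries SLC16A1 and SLC16A3 to the cell surface, averaged 290.3 ± 60.0 CPM in S9 and 456 ± 25.2 CPM in S6, with an adjusted p of 0.0450.

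The remaining members that fell were PGM1 (log2 fold change -0.65, adjusted p = 0.0305) and PGM2 (-0.68, 0.0366), phosphoglucomutases, MDH1 (-0.68, 0.0481), the cytosolic malate dehydrogenase, and HK3 (-3.24, 0.0293), a hexokinase of white blood cells. HK3 averaged 1.09 ± 0.479 CPM in S9 and 10.3 ± 10.5 CPM in S6. In S7 against S6 and in S9 against S7 no gene of the list was called.

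Of 30 other hypoxia pathway genes 29 were tested, and in S9 against S6 0 rose and 4 fell, against the same 6.02% and 6.34% of all genes, with a median log2 fold change of -0.16. The 4 were TFRC, the transferrin receptor (18.5 ± 2.16 CPM in S9 and 47.6 ± 10.1 CPM in S6, adjusted p = 0.0190), BHLHE40, a transcriptional repressor (log2 fold change -1.33, adjusted p = 0.0275), NOS2, the inducible nitric oxide synthase of macrophages and other cells (-1.90, adjusted p = 0.0388), and CA12, a carbonic anhydrase (0.132 ± 0.185 CPM in S9 and 65.3 ± 53.2 CPM in S6, adjusted p = 0.0196). Not called were VEGFA (-0.18), the prolyl hydroxylase EGLN1 (0.31), P4HA1 (-0.31), the stress gene DDIT4 (-0.71) and EPAS1 (0.32), the second HIF subunit of this kind. In S7 against S6 and in S9 against S7 0 genes of this list were called. None of the calls in these further lists held without S9 replicate 1, where 0 of all genes tested were called in S9 against S6, and without S9 replicate 2 the number over all genes was 4.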

How the data were processed

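Total RNA of rabbit urethral tissue was prepared as poly(A) libraries, per the labels' protocols. The submitters' processing notes name fastp, HISAT2 and HTSeq, without versions; the genome build is not given in the sources used here, so no coordinates or promoter sequences are given, and promoter motifs were not analysed here. The authors deposited whole-number read counts per gene and FPKM values for 9 libraries, in a table each. Counts were tested and FPKM was used only to compare levels between genes and for isoenzyme shares.

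Genes were filtered with filterByExpr (minimum count 10, minimum total 15) and fitted in edgeR 4.0.16 (R 4.3.3, limma 3.58.1) with TMM normalization and robust quasi-likelihood, all 3 groups in 1 model, and p-values were adjusted (Benjamini-Hochberg, threshold 0.05) over all 17102 genes tested. CPM values use the TMM library sizes. Each standard error (SE) was derived from the test, as the size of the log2 fold change over the square root of its F statistic. The fit was also run on simulated counts with changes set for 200 genes. Shifts of single libraries, such as that of LDHA, were not simulated, so that run does not bear on them. The biological coefficient of variation was 41.9%. DESeq2 1.42.0, other filters and size factors, a gene length correction, a replicate block and libraries left out were tried as alternatives; the cause of the differences between them was not tested.

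Groups were taken from the titles. Members, gene lists and marker lists were chosen with earlier results of these data known. Values in every library are given for members called in a comparison or with a log2 fold change of at least 1 in size; some further members are shown for completeness of the pathway, and of the companion lists those called are named, with 5 well-known hypoxia genes chosen after their values were seen. Counts carry no molecular identifiers.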

Additional observations from a re-analysis of the deposited data

How the results depend on the processing

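Directions of the 12 members called in S9 against S6 held in all 17 alternatives, and 0 of 425 values of members that were called or had a log2 fold change of at least 1 in size changed sign. For the 12, whose S9 and S6 libraries did not overlap, leaving libraries out could not by itself reverse a direction. Over all members 56 of 1581 values did, with sizes of at most 0.858 before the change. Whether a call passed the threshold depended on the setting. All 12 calls held with DESeq2, with DESeq2 size factors in edgeR and with at least 1 CPM in 3 libraries, 9 without a filter and 8 with the gene length correction. Without one replicate at a time, genes called numbered 0 to 2076 in S9 against S6 (2115 with all libraries), 0 to 10 in S7 against S6 and 0 to 1 in S9 against S7, members called lower in S9 against S6 0 to 10 and higher 0 to 1, and in the 3-group test genes 0 to 641 and members 0 to 4. DESeq2 called 4112, 1417 and 123 genes in the 3 comparisons, 2 members higher in S9 against S6, and 1 higher and 5 lower in S7 against S6. The replicate block gave 16 genes and 0 members in either direction in S9 against S6 (median -0.55). It gave 1 gene in S7 against S6, and 2 genes and 0 members in the 3-group test. Deviations of same-numbered libraries correlated between -0.065 and 0.139, and those of different-numbered libraries between -0.178 and 0.103. The highest values, 0.139, 0.132 and 0.127, were of same-numbered libraries, and these correlations do not settle whether the numbers mark pairs. The numbers were not taken as pairs because the labels do not say what same-numbered libraries share. The length correction left 7 members lower (median -0.51). Without S6 replicate 4, S7 replicate 3 and S9 replicate 4 together, the libraries low in mitochondrial counts, S9 against S6 had 7 genes and 0 members in either direction (median -0.85), S7 against S6 0 genes (median -0.60), S9 against S7 1 gene, and the 3-group test 0 genes and 0 members. With only the libraries of both groups, 7 members were lower in S9 against S6 and 0 genes were called in S7 against S6. At least 1 CPM in 3 libraries gave 4 members in the 3-group test. The cause of these differences was not tested. With 3 libraries in a group, a missed threshold does not show equal levels, and genes under about 1 CPM, such as PFKFB3, rest on few counts.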
